A study of Macaca mulatta with 13 samples.

Results

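A set of 10 genes that mark the endothelium, the cell layer lining blood vessels, were followed in the thigh muscle of aged rhesus monkeys (Macaca mulatta). The genes were CLDN5, CDH5, PECAM1, VWF, KDR, TIE1, TEK, ENG, NOS3 and GNG11. They were found by their symbols in the platform annotation, among 14132 genes named by 1 symbol, and all 10 were present, with 19 probe sets between them. A probe set is a group of short probes on the array that together give 1 signal for a transcript. The 10 genes were chosen by name, with the measured signal differences between the diets already known from these arrays, so their diet differences are given as a description and carry no test.

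Endothelial cells are held together by tight junctions built of claudins and by adherens junctions built of VE-cadherin. They read growth signals through the VEGF receptors and through the angiopoietin receptor of the TIE family, and they relax the vessel wall with nitric oxide. In skeletal muscle they line the capillaries that run along the fibres, so a piece of muscle holds RNA of endothelium beside that of fibres, pericytes, fat and matrix cells.

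The tissue was vastus lateralis, the outermost part of the quadriceps, and all animals were male. The control group held 5 animals of 27 to 30 years on a control diet. The 8 animals on calorie restriction (CR) were 27 to 32 years old, with 18.5 years stated as its length. The series' design text words that duration so that it can be read as covering the controls too, whereas each sample's own label gives its diet as control or calorie restricted, and the groups follow those labels. From every animal came 1 one-colour Affymetrix array, labelled as a biological replicate, and the number of arrays limits the precision. Ages are known per group only, and the labels name no processing batch. The 13 arrays had the same 2% trimmed mean signal of 500, and they correlated in pairs with r from 0.834 to 0.940 across 26383 probe sets, which are not independent replicates. These 26383 are the brighter 50% of all probe sets by mean log2 signal, with a mean signal of at least 107, and only they were tested. Control replicate 4 stood apart: its summed signal of the 15 measured mature fibre genes was 461917, below the other arrays. Results that rest on it are given with and without it.

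The label of the set was checked first. Of the 10 genes, 9 had a probe set above the limit of brightness, and the only probe set of KDR lay below it, with signals from 38.9 to 116. In all, 15 of the 19 probe sets were bright enough to be tested. Of a wider list of 42 endothelial genes, 34 had a named probe set and 28 were bright enough. The muscle itself was plain in the arrays: all 15 measured fibre genes, among them the creatine kinase gene CKM and the myoglobin gene MB, were above the limit.

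With the brightest probe set of each gene, all 10 genes had a lower mean log2 signal in CR than in controls, by between 0.03 and 1.01, with a median difference of -0.42. Over all 26383 tested probe sets 51.9% were lower in CR, with a median difference of -0.01. No member probe set was called by limma's test at an adjusted p under 0.05 (0 of 15, where the share called among all tested probe sets was 0%). At an unadjusted p under 0.05 limma gave 2 of 15 as lower, both of GNG11, where 1.18% of all tested probe sets were. None of the 15 was higher at that limit, against 1.25% of all, so the share in either direction was 2 of 15 against 2.43%. The genes were chosen with this contrast known, and nothing is read from these counts. In bulk muscle, fewer endothelial cells and less RNA per endothelial cell cannot be told apart.

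The size of the difference depended on which animals were included. Without control replicate 4 the median difference over the 10 genes was -0.24 and 9 were lower, and without control replicate 5 it was -0.31 with 9 lower. Without both of them it was -0.0022, with 5 genes lower and 5 higher. These are the controls with the highest signals of the set, so leaving them out had to bring the groups closer. Leaving out CR replicate 4, the animal with the lowest signal for 5 of the genes, also moved the median, to -0.26.

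**Figure D1:**
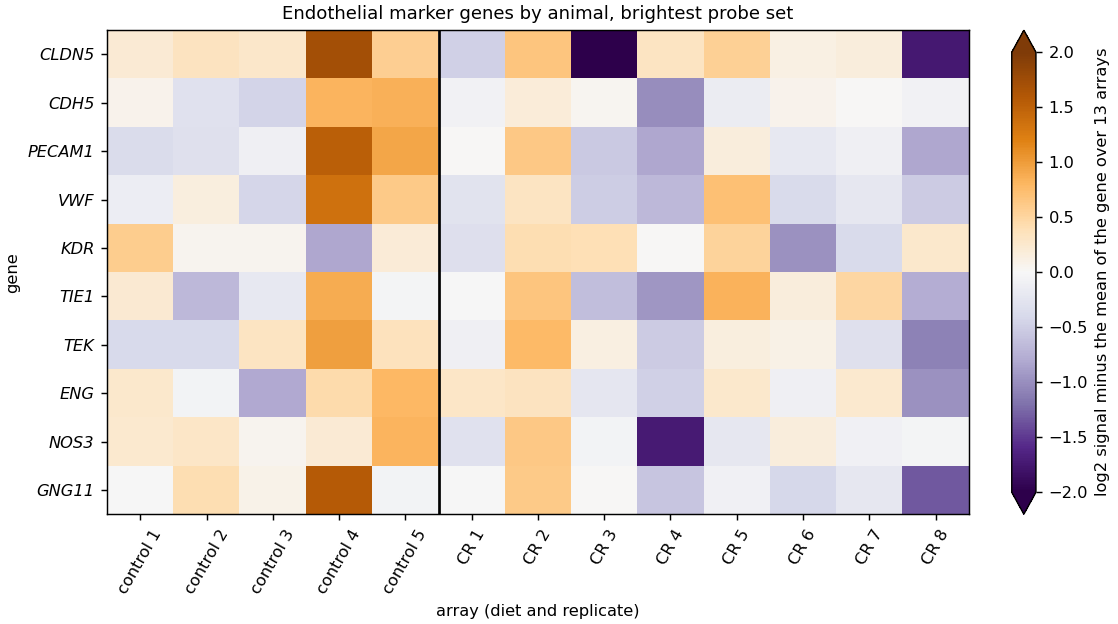
Each cell is the log2 signal of 1 endothelial marker gene (rows, brightest probe set) on 1 array (columns, 5 control and 8 CR animals), minus the mean of that gene over the 13 arrays. Control replicate 4 is high for most genes but not for KDR, control replicate 5 and CR replicate 2 are also high, and CR replicates 4 and 8 are low for most genes.

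Among the junction genes, CLDN5 encodes claudin-5, the main claudin of endothelial tight junctions. Its only probe set gave signals of 218, 238, 227, 615 and 280 in control replicates 1 to 5. In the 8 CR animals the lowest signal was 29.2, the median 207 and the highest 298. Control replicate 4 lay above all other animals, and CR replicates 3 and 8 lay far below them, while the remaining values overlapped. The mean log2 signal was 8.18 ± 0.62 (SD) over the 5 controls, whereas the 8 CR animals had 7.17 ± 1.21 (SD), a difference of -1.01 ± 0.52 (SE). Without control replicate 4 the difference was -0.73. Without CR replicate 3 it was -0.68, the smallest with any 1 animal left out. CR replicates 3 and 8 had signals of 29.2 and 56.2, which are low for this array.

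CDH5 encodes VE-cadherin, the adhesion protein of endothelial adherens junctions. Its brighter probe set gave signals of 546, 421, 382, 915 and 930 in the controls. The CR animals ran from 257 through a median of 507 to 586. Control replicates 4 and 5 lay above every CR animal, and the other controls lay within the CR range. The log2 difference was -0.33 ± 0.25 (SE), -0.17 without either of these controls, and 0.09 without both. The other probe set of CDH5 went the other way, with 53.6 to 160 in controls, 50.8 to 236 in CR and a log2 difference of 0.55 ± 0.41 (SE).

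PECAM1 encodes CD31, an adhesion molecule at endothelial contacts that platelets and leukocytes carry too. The brightest of its probe sets gave signals of 2038, 2116, 2430, 7500 and 4993 in the controls, and 1479, 2358 and 4076 as lowest, median and highest in CR. Control replicates 4 and 5 were again above every CR animal, and the other 3 controls were not. The log2 difference was -0.54 ± 0.32 (SE), or 1.46-fold lower in CR, and it was -0.25 without control replicate 4 and 0.05 without both controls. The other PECAM1 probe sets differed by -0.78 ± 0.39 and -0.70 ± 0.36 (SE), and by -0.05 and -0.15 without both controls.

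VWF encodes von Willebrand factor, the clotting protein that endothelial cells store and release and that platelets hold as well. Its brighter probe set gave signals of 2497, 3025, 2035, 6995 and 4209 in the controls, and 1717, 2178 and 4500 as lowest, median and highest in CR. Only control replicate 4 lay above every CR animal, and CR replicate 5 lay above the other 4 controls. The log2 difference was -0.50 ± 0.29 (SE), -0.24 without control replicate 4 and -0.05 without control replicates 4 and 5. A dim second probe set, with signals from 9.66 to 129, differed by 0.14 ± 0.66 (SE).

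Of the receptors, KDR encodes VEGF receptor 2, the main receptor for the growth factor VEGF-A. Its signals were 116, 79.6, 80.3, 43.8 and 88.1 in the controls, and 38.9, 84.5 and 111 as lowest, median and highest in CR. The groups overlapped almost fully, with a log2 difference of -0.03 ± 0.41 (SE), and control replicate 4 was here the lowest control. The difference was -0.23 without that animal and 0.12 without control replicate 1. At this brightness the probe set says little about the level of the transcript.

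TIE1 and TEK encode the TIE receptors, and TEK is the receptor that binds the angiopoietins. TIE1 gave 445, 239, 335, 704 and 371 in the controls, and 199, 403 and 684 as lowest, median and highest in CR, so the ranges nearly coincided. Its log2 difference was -0.07 ± 0.33 (SE) and turned to 0.14 without control replicate 4. TEK gave 549, 554, 911, 1427 and 929 in the controls, and 341, 728 and 1247 in CR in the same order. Control replicate 4 was the highest animal and CR replicate 8 the lowest. The log2 difference of TEK was -0.28 ± 0.29 (SE), -0.08 without control replicate 4 and 0.05 without both controls. The dimmer TEK probe set differed by 0.26 ± 0.43 (SE), and by -0.24 without control replicate 4. Control replicate 4 had the lowest signal on it, 50.4, where the other controls had 178 to 399.

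ENG encodes endoglin, a coreceptor for ligands of the TGF-beta and BMP families. The brighter probe set gave 1639, 1311, 785, 1867 and 2357 in the controls, and 694, 1433 and 1723 as lowest, median and highest in CR. Control replicates 4 and 5 lay above every CR animal, and control replicate 3 lay near the bottom. The log2 difference was -0.21 ± 0.27 (SE), -0.05 without control replicate 5 and 0.12 without both controls. On the dimmer ENG probe set control replicate 4 was again the lowest animal, at 81.3 against 314 to 461 in the other controls, and the difference was 0.18 ± 0.42 (SE), or -0.27 without that animal.

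NOS3 encodes the endothelial nitric oxide synthase. Its brightest probe set gave 226, 234, 199, 221 and 340 in the controls, and 57.9, 183 and 296 as lowest, median and highest in CR. Here control replicate 4 did not stand out, and 6 of 8 CR animals lay below the lowest control. The log2 difference was -0.52 ± 0.32 (SE), with -0.55 without control replicate 4 and -0.30 without CR replicate 4, the animal at 57.9. The other NOS3 probe sets were dim, with signals from 5.67 to 83.4, and differed by -0.30 ± 0.76 and -0.94 ± 0.66 (SE).

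GNG11 encodes a gamma subunit of heterotrimeric G proteins that is abundant in endothelial cells and platelets. Both of its probe sets carry the same design number on the array, and the names differ only in the suffix that marks probes shared between transcripts, so they may share probes, and whether they are independent measurements was not tested. The dimmer one gave 1166, 1183, 1100, 1883 and 1286 in the controls, and 529, 854 and 1090 as lowest, median and highest in CR. All 5 controls lay above all 8 CR animals, a separation that 0.0303% of the tested probe sets showed in this direction. It was the only one of the 19 probe sets whose groups did not overlap. The log2 difference was -0.65 ± 0.19 (SE), or 1.56-fold lower in CR, and stayed between -0.70 and -0.51 with any 1 animal left out. The brighter probe set gave 1497, 1990, 1587, 4479 and 1444 in the controls, and 595, 1357 and 2289 in CR, with overlapping groups. Its difference was -0.65 ± 0.30 (SE), and -0.36 without control replicate 4.

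**Figure D2:**
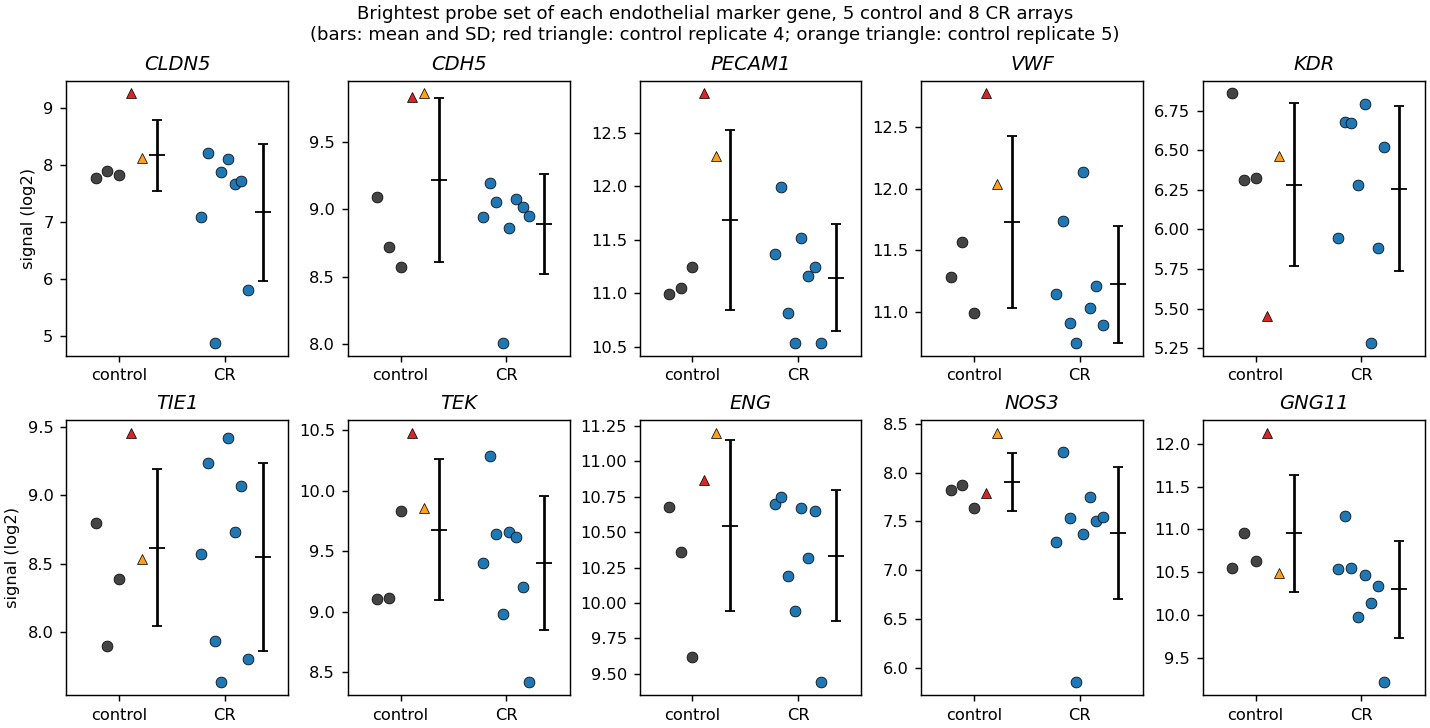
Log2 signals of the brightest probe set of each endothelial marker gene in the 5 control and 8 CR animals, 1 point per animal, with the mean and SD of each diet beside the points. Control replicate 4 (red triangle) is the highest control for CLDN5, PECAM1, VWF, TIE1, TEK and GNG11, and control replicate 5 (orange triangle) for CDH5, ENG and NOS3.

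Over all 19 probe sets, bright or dim, 15 were lower and 4 higher in CR, with a median log2 difference of -0.33. Those that were higher were the second probe sets of CDH5, ENG, TEK and VWF, of which those of ENG and TEK turned lower without control replicate 4. Without control replicates 4 and 5, 11 of the 19 were lower. Among the brightest probe sets, 5 kept a lower mean in CR with both controls left out. They were CLDN5, GNG11 and NOS3, at -0.66, -0.41 and -0.39, the dim KDR, at -0.24, and VWF, at -0.05.

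**Figure D3:**
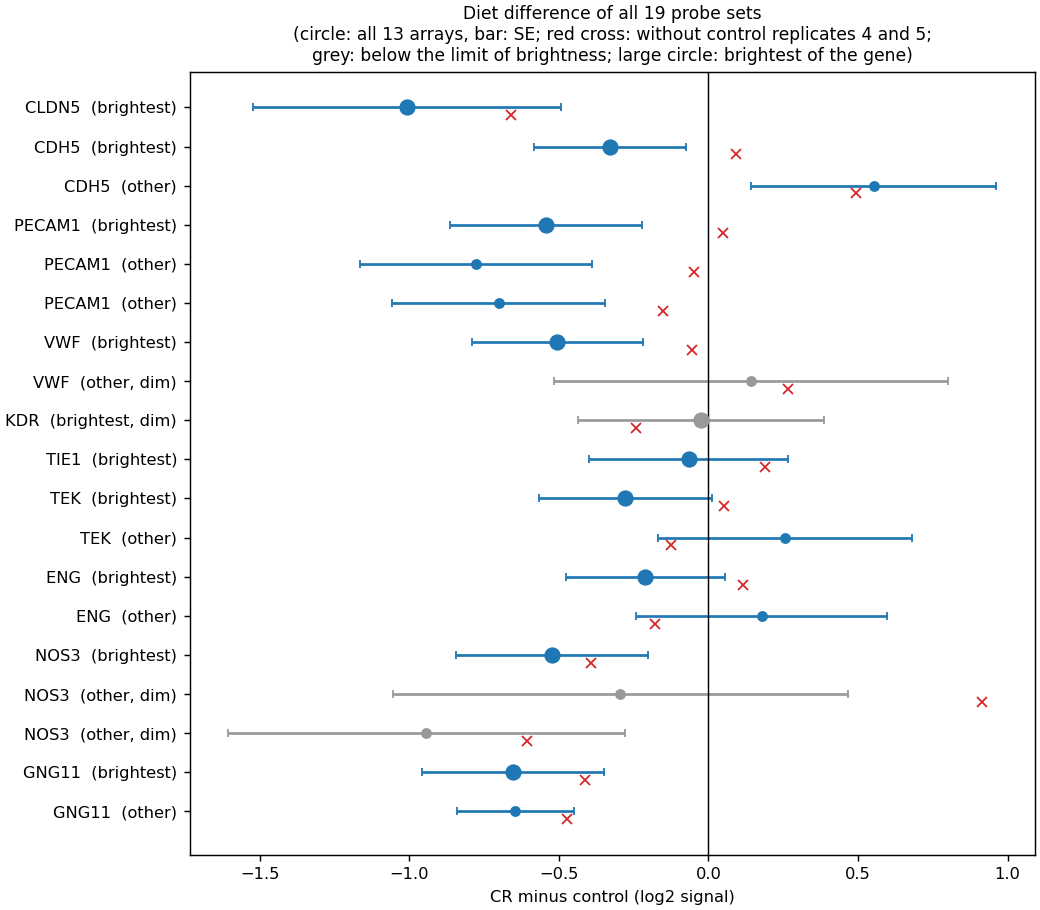
Difference in mean log2 signal, CR minus control, for all 19 probe sets, with SE bars over 13 arrays; red crosses give the difference without control replicates 4 and 5, and grey points are probe sets below the limit of brightness. The crosses of PECAM1, VWF, TIE1, TEK, ENG and CDH5 lie near 0 or to its right for the brightest probe sets. Those of CLDN5, NOS3, GNG11 and the dim KDR lie to its left.

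The animals ranked much alike from gene to gene. Control replicate 4 had the highest signal of all 13 animals for 6 of the 10 genes, control replicate 5 for 3 and control replicate 1 for KDR. In the CR group, replicate 2 was the highest for 7 genes, while replicate 4 was the lowest for 5 and replicate 8 for 3. The median deviation from each gene's mean was 0.93 on the log2 scale in control replicate 4, 0.60 in control replicate 5 and 0.62 in CR replicate 2. It was -0.62 in CR replicate 4 and -0.80 in CR replicate 8. The ratio of 3' to 5' actin signal, a sign of RNA quality, was highest in control replicate 4, at 2.41 on the log2 scale. The other controls had 1.47 to 1.68 and CR 1.06 to 2.08. The same ratio for GAPDH did not set that animal apart. It was 0.73 there, 0.30 to 0.76 in the other controls and 0.48 to 0.91 in CR. A fit with both ratios as covariates was run as an alternative. Among the 10 genes only the difference of KDR changed sign in it, to 0.0918. Beyond that fit, the part of RNA quality in the result was not tested.

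This shared variation was measured within diets, on signals centred on each diet's mean. The diet differences are taken between those means, but their SE and limma's p-values rest on the same deviations. The correlations are therefore not fully separate from the diet contrast. Of the 45 gene pairs 36 had a Pearson r above 0, with a median of 0.52 over 13 arrays. In a two-sided permutation test that shuffled animals within diets, 7 pairs had an adjusted p under 0.05 over the 45 pairs. With Spearman's rho 8 had, 6 of them the same. No share of such pairs among other genes is given here, so the count alone does not set these genes apart. PECAM1 and VWF gave r = 0.87 (permutation p = 0.00066, adjusted p = 0.0144) and rho = 0.85 (p = 0.00177, adjusted p = 0.0397), with r = 0.76 without the 2 arrays farthest from the median of PECAM1. PECAM1 and TEK gave r = 0.84 (permutation p = 0.00065, adjusted p = 0.0144) and rho = 0.82 (p = 0.00077, adjusted p = 0.0346), with r = 0.69 without the 2 farthest arrays. CDH5 and NOS3 gave r = 0.74 (permutation p = 0.00122, adjusted p = 0.0144) and rho = 0.69 (p = 0.00756, adjusted p = 0.0425), with r = 0.60 without them. TEK and GNG11 gave r = 0.82 (permutation p = 0.00173, adjusted p = 0.0156) and rho = 0.73 (p = 0.00617, adjusted p = 0.0397), with r = 0.64 without them.

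The number of pairs past the threshold depended on single animals. Without control replicate 4 or without CR replicate 2 it was 1, and without CR replicate 3 it was 16, while the median r moved only between 0.48 and 0.64 with any 1 animal left out. KDR did not vary with the others: 8 of its 9 correlations were below 0, and all ran from -0.37 to 0.05. Without control replicate 4 only 1 was below 0, and they ran from -0.23 to 0.31, so the sign rested on that animal. Among the other 9 genes, 35 of 36 pairs were above 0, and the median r was 0.61. The exception was CLDN5 with NOS3, at -0.08. Probe sets of 1 array share its labelling and scaling, and their part in these correlations was not tested.

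**Figure D4:**
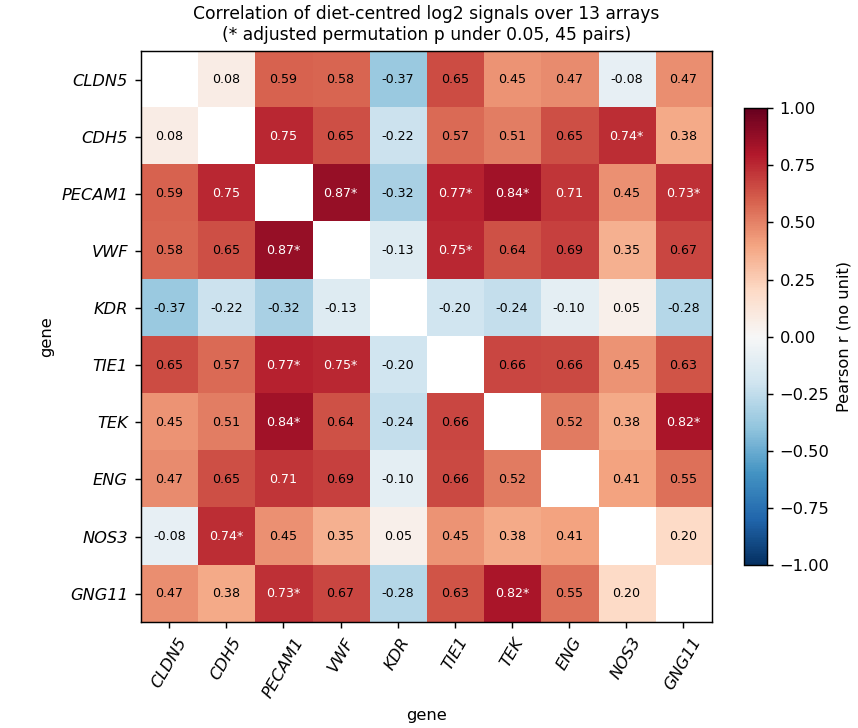
Pearson r between the diet-centred log2 signals of each pair of endothelial marker genes over 13 arrays, on a scale from -1 to 1; an asterisk marks pairs with an adjusted permutation p under 0.05 over 45 pairs. PECAM1 has 4 such pairs, VWF, TIE1, TEK and GNG11 have 2 each, and the row of KDR is at or below 0.05.

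Probe sets of 1 gene did not always follow each other within diets, over 11 such pairs. The brightest pair of PECAM1 gave r = 0.99 (permutation p = 1e-05, the smallest that the 100000 shuffles can give, adjusted p = 0.00011) and rho = 0.96 (p = 3e-05, adjusted p = 0.00033), with r = 0.98 without the 2 farthest arrays. The pair of GNG11 gave r = 0.65 (permutation p = 0.0241, adjusted p = 0.0663) and rho = 0.54 (p = 0.0639, adjusted p = 0.176), with r = 0.65 without the 2 farthest. The pair of CDH5 gave r = -0.18 (permutation p = 0.590, adjusted p = 0.791), rho = -0.12 (p = 0.713, adjusted p = 0.980) and r = -0.07 without the 2 farthest, and that of TEK r = -0.15 (permutation p = 0.676, adjusted p = 0.791), rho = 0.01 (p = 0.980, adjusted p = 1) and r = -0.37 without them. Without control replicate 4 the TEK pair gave r = 0.44 and the CDH5 pair r = -0.38, so the sign for TEK turned with that animal.

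The genes whose pattern was most like that of the set were found over the 9803 other tested genes, by the Pearson r of diet-centred log2 signals with the mean z score of the 9 bright members over 13 arrays. These are the highest of many values and carry no test. The gene first in rank was NRP1, a coreceptor of VEGF, with r = 0.97 and rho = 0.99, and with r = 0.96 without CR replicates 4 and 8, the arrays farthest from the median. EPAS1, the hypoxia-inducible factor HIF-2 alpha that is abundant in endothelium, had r = 0.91 and 0.94 without control replicate 4. PLXND1, the endothelial semaphorin receptor plexin D1, had r = 0.91, and FOXC1, a forkhead transcription factor of vessel development, had r = 0.90. GAS6, a ligand of the TAM receptor kinases, also had r = 0.91. The others were SPOCK2 (r = 0.95), LHX6 (r = 0.94), TTC28 (r = 0.92), LOC714008 (r = 0.91) and PDIA5 (r = 0.90). Without control replicate 4, NRP1, SPOCK2 and EPAS1 held the first 3 ranks. The median r was 0.50 for the 28 bright genes of the wider endothelial list, against 0.03 for all 9803 genes. It was as high for the 5 tested adipocyte markers, at 0.50, and 0.44 for the 11 of pericytes and smooth muscle. The likeness was therefore not particular to endothelial genes. For fibroblast, macrophage, and platelet and red cell markers it was 0.27, 0.26 and 0.11, and for mature fibre genes -0.12. Part of this order rested on control replicate 4. Without it the fibre genes turned to 0.28, and fibroblast, macrophage, and platelet and red cell markers had 0.02, 0.18 and 0.09. The wider endothelial list then had 0.46, the adipocyte markers 0.39, those of pericytes and smooth muscle 0.39, and all 9803 genes 0.03.

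The wider lists were written for their roles, with earlier results of these data known. None of their genes passed limma's test, in which each had an adjusted p of 0.999. Of the 28 other endothelial genes, 22 had a lower mean in CR, with a median log2 difference of -0.25. SELP, the adhesion molecule P-selectin, differed by -0.61 ± 0.28 (SE) with 8 of 8 CR animals below the control mean. It was the only gene of this list at an unadjusted p under 0.05 in limma's test, and is named for that value. This is 1 of 28 genes, where 1.18% of all tested probe sets were lower at that limit, and nothing is read from it. EMCN, the endothelial sialomucin endomucin, differed by -0.32 ± 0.35, EGFL7, a secreted endothelial protein, by -0.10 ± 0.23, and CD36, a fatty acid transporter of capillaries and fibres, by -0.77 ± 0.53. AQP1, the water channel of capillary endothelium, differed by 0.15 ± 0.16. Without control replicate 4 the count was 18 of 28 with a median of -0.09, and without both controls it was 14 of 28.

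In VEGF and angiopoietin signalling, the pathway of KDR and TEK, 10 of 10 bright genes had a lower mean in CR, with a median of -0.34, or 9 with a median of -0.19 without control replicate 4. NRP1 differed by -0.37 ± 0.37 (SE) and by -0.08 without that animal. PTPRB, the phosphatase that dampens TEK signalling, differed by -0.30 ± 0.20. The ligand genes were flat in the mean, at -0.02 ± 0.14 for VEGFB and -0.0033 ± 0.46 for ANGPT1, the activating ligand of TEK. ANGPT1 turned to 0.48 without control replicate 4. VEGFA, ANGPT2 and APLN have no probe set under these names and were not analysed here, and FLT1 was too dim.

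For the nitric oxide pathway of NOS3, 10 of 13 bright genes had a lower mean in CR, with a median of -0.12. CAV1, the caveolin that binds and restrains the synthase, differed by -0.34 ± 0.28 (SE), and by -0.10 without control replicate 4, which had the highest control signal. PDE5A, the phosphodiesterase that degrades cyclic GMP, differed by -0.35 ± 0.21 but its other probe set by 0.85. DDAH2, which degrades an inhibitor of the synthase, differed by -0.01 ± 0.25, and by 0.24 without control replicate 4. PRKG1, the kinase that answers to cyclic GMP, differed by -0.01 ± 0.40, and by -0.32 without that animal. GUCY1A1 and GUCY1B1 were not analysed here.

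Transcription factors of the endothelium had a lower mean in 12 of 17 genes, with a median of -0.15, or 9 of 17 with a median of -0.01 without control replicate 4. ERG, an ETS factor that keeps endothelial identity, differed by -0.28 ± 0.21 (SE), and KLF2, which answers to blood flow, by -0.0036 ± 0.30, or 0.18 without that animal. In the pathway of endoglin, 8 of 11 were lower, with a median of -0.13, or 6 without control replicate 4. ID1, a target of BMP signals, differed by -0.19 ± 0.47 and by 0.17 without that animal. Among partners of junction proteins 7 of 10 were lower, or 5 without control replicate 4. CTNND1, the p120 catenin bound by VE-cadherin, differed by -0.35 ± 0.30, or -0.11 without control replicate 4, and TJP1, the tight junction scaffold ZO-1, by -0.06 ± 0.14. SOX18, ROBO4 and ACVRL1 were too dim to be tested, and ESAM, CD34, PLVAP, S1PR1 and BMPR2 were not analysed here.

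Of the G protein subunits related to GNG11, 2 of 6 were lower and 4 higher in CR, with a median of 0.04, or 4 lower without control replicate 4. GNB1, a beta subunit, differed by -0.31 ± 0.23 (SE), and by -0.13 without control replicate 4. GNG2 was not analysed here.

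Pericytes and smooth muscle wrap the endothelium, and 8 of 11 of their measured markers had a lower mean in CR, with a median of -0.22, or 8 with a median of -0.08 without control replicate 4. MYH11, the smooth muscle myosin, differed by -0.45 ± 0.64 (SE), or -0.06 without that animal. PDGFRB, RGS5 and ACTA2 were not analysed here.

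**Figure D5:**
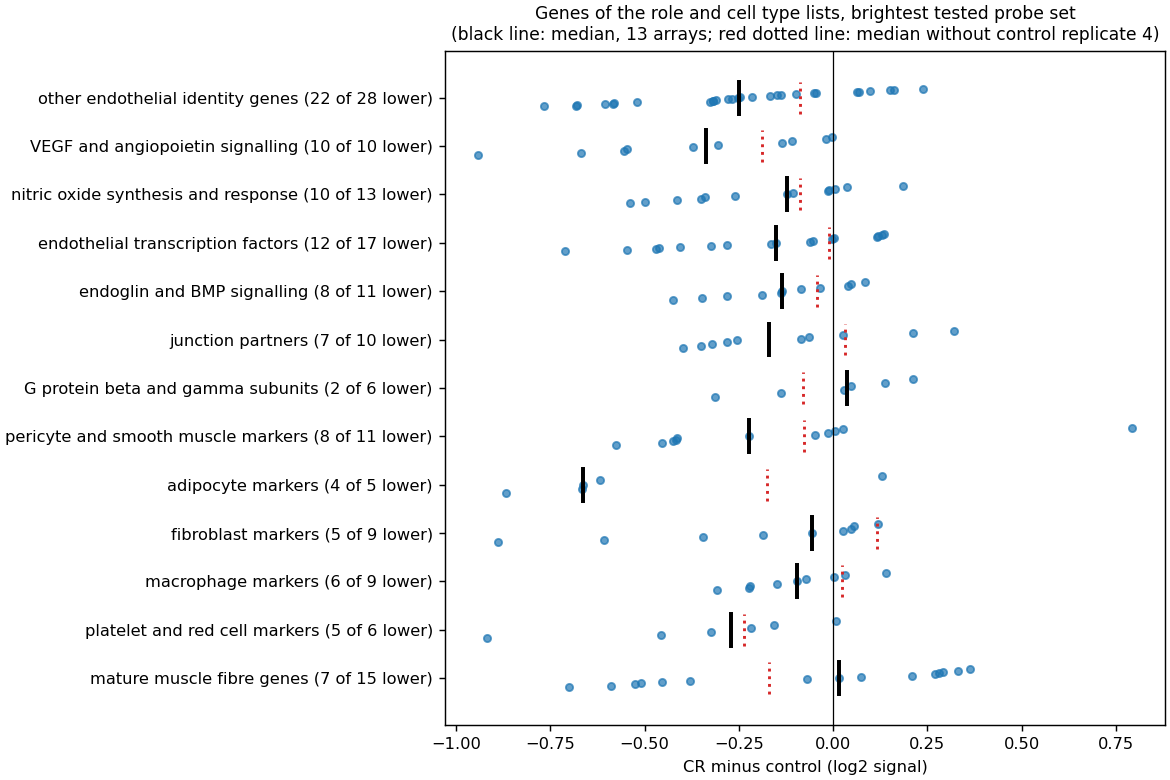
Difference in mean log2 signal, CR minus control, for each tested gene of the role and cell type lists (points), with the median of each list over 13 arrays (black line) and without control replicate 4 (red dotted line). The medians of the endothelial, VEGF, pericyte and adipocyte lists move towards 0 without that animal, and that of the platelet and red cell list is -0.27 with it and -0.24 without it.

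Markers of other cells moved with control replicate 4 as well. The summed signal of the 10 endothelial genes was 8970 to 24766 in controls and 6068 to 14627 in CR, with the highest sum in control replicate 4. For adipocytes (6 of 10 markers measured) the sum was 3856 to 32391 in controls and 3616 to 36523 in CR, and it was 1.78 higher on the log2 scale in control replicate 4 than in the other controls on average. FABP4, named as the brightest marker of this list, had a log2 signal of 14.56 in control replicate 4, so the linear sum there rests mostly on it. Of the 5 adipocyte markers bright enough to be tested, 4 had a lower mean in CR, with a median log2 difference of -0.66, or -0.17 without control replicate 4. The other, ADIPOQ, is named for its direction and differed by 0.13 ± 0.27 (SE). For fibroblasts (9 of 10 measured) the sum was 62212 to 180356 in controls and 75150 to 131554 in CR, with the highest in control replicate 4 and the lowest in control replicate 5. For pericytes and smooth muscle (11 of 16 measured) it was 10645 to 32269 in controls and 9087 to 27297 in CR, again with the highest in control replicate 4. The 15 measured fibre genes had sums of 461917 to 1137470 in controls and 671536 to 1296930 in CR, with the lowest in control replicate 4. TTN, which encodes titin, was the only one of them at an unadjusted p under 0.05 in limma's test (-0.70 ± 0.32 SE). It is named for that value. It was 1 of 15 genes, where 1.18% of all tested probe sets were lower at that limit, and nothing is read from it.

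Control replicate 5, the other control with high endothelial signals, did not share that pattern. Its fibre gene sum was 1035100 and its fibroblast sum the lowest of all animals, but its sum of platelet and red cell markers (9 of 14 measured) was the highest, at 6385, where controls ran from 1123 to 6385 and CR from 1442 to 6188. PECAM1, VWF and GNG11 are also genes of platelets. In control replicate 5 their brightest probe sets gave 4993, 4209 and 1444, and the last was the lowest control signal of GNG11. This animal was the highest control for CDH5, ENG and NOS3. Of the 6 platelet and red cell markers bright enough to be tested, 5 had a lower mean in CR, with a median log2 difference of -0.27, or 4 with a median of -0.24 without control replicate 4. Of these 9 markers GP9, GP1BA and AHSP were below the limit of brightness, and of the adipocyte markers PNPLA3 was. Macrophage markers (10 of 12 measured, MARCO too dim) had sums of 4591 to 9475 in controls and 3670 to 12977 in CR. The part of these cells in the endothelial differences was not tested.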

How the data were processed

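Trizol-extracted RNA was hybridised as biotinylated cRNA, per the labels' protocols. For each probe set and array the authors deposited 1 linear intensity, computed with MAS5 (version not stated) per the submitters' processing notes. Of 52865 probe sets, 99 control probe sets were removed. Signals were floored at 1 (137 values) and log2 transformed, and the dimmer 50% of probe sets were not tested. The 10 members were described with every probe set, tested or not. Of the non-control probe sets 24956 had 1 gene symbol, 361 several and 27449 none listed, and the gene IDs of the 10 members gave the same symbols in the RefSeq table. Scaling every array to 1 trimmed mean removes any shift shared by most transcripts.

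The diet contrast was fitted in R 4.3.3 with limma 3.58.1 (lmFit, then eBayes with a trend). Its two-sided p-values were adjusted over 26383 probe sets by Benjamini and Hochberg's method, with a threshold of 0.05. For each gene the brightest probe set was used, and fold changes are on the log2 scale of floored signals. Medians of CR signals were taken on the log2 scale. Tested on simulated data for this contrast (26383 probe sets), the fit found 4 of 67 simulated 1.5-fold changes. It found 21 of 67 at 2-fold and 53 of 66 at 4-fold, and made 4 false calls. Correlations used 100000 shuffles within diets (numpy 2.4.6). The members and lists were chosen with earlier results of these data known. Genes named from the lists were fixed by role, whatever their values, except where stated, and those most alike were the 10 with the highest r. Alternatives covered normalization, offset, filters, variance model, array weights, RNA quality, the replicate block, single animals, control replicates 4 and 5 together, and averaging all probe sets of each gene. The counts of lower genes and the likeness without control replicate 4 were added after seeing the data. The replicate numbers did not pair the animals: same-numbered control and CR arrays correlated with r from -0.20 to 0.02 in their deviations from the group means.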

Additional observations from a re-analysis of the deposited data

Results flagged for a closer look

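For the endothelial probe sets, the genes named by role and the genes most alike, each diet was searched for 1 animal set apart from the others. Of 94 such searches 10 found one. Chance alone flags about 1 group in 20, which comes to 4.70. The values are log2 signals.

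Control replicate 4 accounted for 7 of these. It was the highest control for CLDN5, at 9.26, for both probe sets of GNG11, at 12.13 and 10.88, for CAV1, at 13.07, for ID1, at 10.73, and for GAS6, at 11.82. It was the lowest control for the dimmer probe set of ENG, at 6.34. CR replicate 4 was the lowest CR animal for the brighter probe set of CDH5, at 8.01, and for the brightest of NOS3, at 5.85. CR replicate 7 was the lowest for the dimmer probe set of CDH5, at 5.67.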

How the results depend on the processing

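The median log2 difference of the 10 endothelial genes stayed below 0 under every alternative run, from -0.54 to -0.24 with 1 animal left out. It was -0.0022 without control replicates 4 and 5, -0.12 with the mean of each gene's probe sets, and -0.40 with the replicate block. No alternative moved it by more than the spread between animals, an SD of 0.435. That spread is larger than the difference itself, -0.416, so staying within it does not show that the difference is stable. The count of lower genes was 9 or 10 with 1 animal left out, 5 of 10 without both controls, and 6 among the brightest 25%, where all that passed were lower. The number of probe sets called by limma was 0 in most settings, 1 without control replicates 4 and 5, and 0 to 1 with 1 animal left out (1 without control replicate 1 and 1 without control replicate 5); it was 0 with the replicate block. The number of correlated pairs was 15 after median centring, 1 without both controls, and 1 to 16 with 1 animal left out. Correlations that changed sign were CLDN5 with CDH5 (-0.047 after quantile normalization, -0.20 without both controls, -0.10 to 0.27 with 1 animal left out) and NOS3 with KDR (-0.0495 after quantile normalization, -0.0765 after median centring, -0.0864 to 0.23 with 1 animal left out). Without both controls KDR gave 0.0365 with PECAM1, 0.36 with VWF, 0.0587 with CDH5, 0.0329 with TEK, 0.0496 with TIE1, 0.0366 with ENG and 0.11 with GNG11. With 1 animal left out these ran from -0.50 to 0.0147, -0.38 to 0.31, -0.31 to 0.0286, -0.45 to 0.0253, -0.41 to 0.0477, -0.18 to 0.0196 and -0.47 to 0.11, those of CLDN5 with NOS3 from -0.28 to 0.22, and those of NOS3 with GNG11 from -0.0217 to 0.32. Among the endothelial genes, the difference changed sign for KDR (0.0918 with RNA quality covariates, 0.19 with the replicate block, -0.23 to 0.12 with 1 animal left out) and TIE1 (0.0753 with array weights, 0.19 without both controls, -0.245 to 0.145 with 1 animal left out). It also did so without both controls for CDH5 (0.0929), ENG (0.12), PECAM1 (0.0501) and TEK (0.0510), and for CDH5 with the mean of probe sets (0.11). Differences of genes named from the role lists that changed sign, none of them past the threshold, were 0.00574 for DDAH2, 0.0083 for PRKG1 and 0.037 for KLF2 after quantile normalization, 0.29 for ANGPT1 and 0.0927 for DDAH2 with array weights, and 0.0451 for DDAH2 with RNA quality covariates. With the replicate block they were 0.10 for ANGPT1, 0.0539 for DDAH2, 0.0693 for PRKG1, 0.20 for ID1 and 0.0356 for TJP1. With the mean of probe sets they were 0.18 for VEGFB, 0.30 for PRKG1, 0.00864 for PDE5A and 0.000894 for KLF2. Without both controls they were 0.0305 for VEGFB, 0.77 for ANGPT1, 0.13 for NRP1, 0.0701 for DDAH2, 0.095 for EMCN, 0.22 for EGFL7, 0.24 for KLF2, 0.25 for ID1, 0.012 for TJP1 and 0.48 for MYH11. With 1 animal left out they ran from -0.35 to 0.48 for ANGPT1, -0.21 to 0.24 for DDAH2, -0.22 to 0.0492 for EGFL7, -0.45 to 0.17 for ID1, -0.27 to 0.18 for KLF2, -0.32 to 0.28 for PRKG1 and -0.0867 to 0.0171 for VEGFB. The cause was not tested. Signal over background limits KDR, the second probe sets of NOS3 and VWF, and the CLDN5 signals of CR replicates 3 and 8.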
